A study of Mus musculus with 39 samples.

Results

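Separated 2-cell embryos, each taken apart into its 2 blastomeres, gave 5 sister pairs, and the transcripts of each blastomere were sequenced as a library of its own. These 10 libraries, chosen by their stage and separation label, are part of 39 libraries from 19 wild-type (WT) mouse embryos. The others are 12 blastomeres of 3 separated 4-cell embryos (batch 1), 8 blastomeres of 2 separated 4-cell embryos (batch 2), 5 intact 2-cell embryos and 4 intact 4-cell embryos. No treatment, transgene or strain is named in the labels, and all 10 sister libraries belong to batch 1. The numbers 1 and 2 of the blastomeres name no identity, such as first or second to divide, so differences between sisters are given by their size without sign unless a sentence says otherwise. Nothing in the labels ties the embryos to different animals or litters, and every p-value therefore reflects only how these libraries vary, in part perhaps for technical reasons. The labels also do not say whether blastomeres were cultured after separation.

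The 2-cell embryo is formed by the first cleavage of the fertilised egg. At this stage messages stored in the oocyte are being degraded while the main wave of transcription from the embryo's own genome begins in mouse. Each sister inherits part of the oocyte's cytoplasm, with its stored messages and mitochondria, and whether sisters already differ in ways that bear on later cell fate has long been studied.

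Depth was uneven. The totals were 33.7 and 9.63 M counts (M, units of 1e+06) in blastomeres 1 and 2 of embryo 1, 11.3 and 38.4 M in embryo 2, 10.3 and 12.4 M in embryo 3, 44.05 and 12.2 M in embryo 4, and 8.30 and 5.93 M in embryo 5. In embryos 1, 2 and 4 one sister was thus 3.49, 3.38 and 3.62 times as deep as the other. No 2 libraries were identical. The summed level of 9 oocyte and embryo marker genes lay between 40050 and 77250 counts per M (CPM) in the 10 libraries. Markers of other cells were low: 2 of 12 cumulus and granulosa genes, 3 of 7 blood genes, 4 of 6 oviduct genes and 1 of 6 sperm genes had any count, and their summed levels reached 47.6, 41.6, 24.7 and 16.9 CPM in the highest library and 0 in the lowest. These sums are per library total, while the CPM of single genes are TMM-scaled, so a single gene can exceed the sum of its list. Has2, Ptprc and Prm1, of the cumulus, blood and sperm lists, had no count in any of the 10. Other members were present. Tnfaip6, of the cumulus list, reached 49.3 CPM in blastomere 2 of embryo 2 and 42.2 CPM in blastomere 1 of embryo 3. Cd74, of the blood list, had 29.2 and 14.2 CPM in the sisters of embryo 2 and 0 elsewhere. The globin genes Hba-a1 and Hba-a2, of the same list, had counts in every embryo. They reached 10.6 CPM in blastomere 2 of embryo 2 and 27.7 CPM in blastomere 1 of embryo 3. Prm2, of the sperm list, had 12.3 and 14.1 CPM in the sisters of embryo 1 and 18.3 CPM in blastomere 2 of embryo 3. Ovgp1, of the oviduct list, had 23.1 CPM in blastomere 2 of embryo 4 and 22.5 CPM in blastomere 1 of embryo 5. Wfdc2, of that list, had 14.6 CPM in blastomere 2 of embryo 2. The sisters of embryo 3 also differed in Y-linked messages, which blastomere 1 held and blastomere 2 nearly lacked, so the label that puts these 2 libraries in 1 embryo is in some doubt, and the main results are given without embryo 3 too.

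Sisters resembled each other more than they resembled blastomeres of other embryos, but the differences between sisters were large. Over 6323 genes with a mean of at least 10 CPM, log2 CPM values of sisters correlated with Pearson r of 0.51 ± 0.03 (SD, n = 5 pairs), against 0.45 ± 0.04 in the 40 pairs of blastomeres from different embryos. In embryos 1 to 5 the sisters' r was 0.525, 0.509, 0.465, 0.522 and 0.552. The 40 pairs of different embryos ranged between 0.388 and 0.519, so both kinds of pair overlapped, and the sisters of embryo 3 were less alike than the most similar blastomeres of different embryos. Within the choices of a given blastomere the picture was uniform: for each of the 10, the library with the highest r was its sister. The margin was narrow in blastomere 2 of embryo 2, with 0.509 to its sister and 0.507 to the nearest other library, blastomere 1 of embryo 1.

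The size of the differences gave nearly the same order, except that blastomere 2 of embryo 2 differed less from blastomere 1 of embryo 1 (median 1.15) than from its sister (1.18). The median absolute difference over genes was 1.14 ± 0.13 on the log2 scale between sisters (n = 5) and 1.35 ± 0.13 between blastomeres of different embryos (40 pairs). By embryo it was 1.11, 1.18, 1.32, 1.12 and 0.97 for the sisters, which is 2.16, 2.27, 2.50, 2.17 and 1.96-fold, and 1.13 to 1.58 for the pairs of different embryos. Embryo 3 had the least alike sisters and embryo 5 the most alike ones on both measures. Sisters differed by over 2-fold at 53.4% of genes and by over 8-fold at 26.04%, and blastomeres of different embryos at 58.9% and 29.2%. Counting error alone gives a sister difference an SD of 0.093 to 0.145 at the median gene, depending on the pair, and leaves out any error of capture or PCR, as reads of amplified cDNA are not separate molecules.

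**Figure D1:**
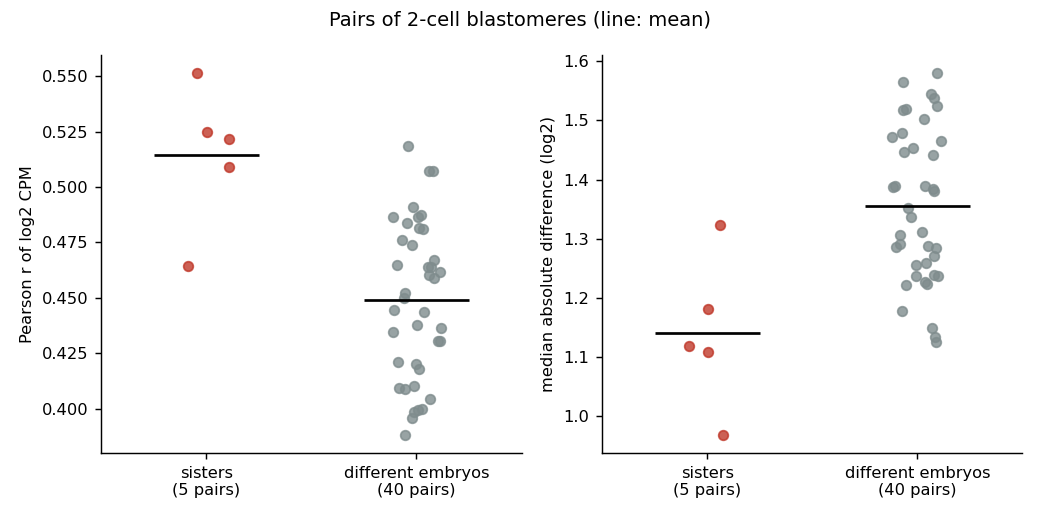
Pearson r of log2 CPM (left panel) and median absolute log2 difference (right panel) for each pair of 2-cell blastomeres, with 5 sister pairs in red and 40 pairs of different embryos in grey, and lines at the means. Sisters average 0.51 in r and 1.14 in the difference, pairs of different embryos 0.45 and 1.35, and the ranges overlap.

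These 3 quantities were tested against all 945 ways in which 10 libraries can be put into 5 pairs. The true pairing gave the highest mean r of them, with a difference of 0.066 between sisters and different embryos (exact permutation test, two-sided, p = 0.00212, which is the smallest this design can give, adjusted p = 0.00212 over 3 values). It also gave the lowest median difference, by −0.22 (same p and adjusted p), and the lowest share of genes seen in one library of a pair only, described next (−2.34 percentage points, same p and adjusted p). Each deep library was the sister of a shallower one. When regroupings were restricted to those that pair each of the 3 deepest libraries with one of the other 7, the true pairing stayed first in all 3 (exact permutation p = 0.00317). Without embryo 3 the differences between sisters and different embryos were 0.060 in r, −0.18 in the median difference and −1.85 percentage points in the share (exact permutation p = 0.019 each, the smallest that 4 pairs can give).

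Many genes were found in one sister and not in the other. After thinning all 10 libraries to 5.93 M counts, 34.3 ± 3.4% of the genes with at least 10 counts in either sister had 0 in the other (SD, n = 5), against 36.7 ± 2.5% for pairs of different embryos. By embryo the share was 32.9, 35.3, 39.02, 34.8 and 29.6%. It went both ways within a pair: in embryo 1, 1453 genes were at 0 in blastomere 1 only and 1767 in blastomere 2 only, and in embryo 5 these numbers were 1638 and 1447. Without thinning, the shares were 32.8 ± 3.0% for sisters and 34.6 ± 3.0% for different embryos. A count of 0 allows a level of up to 0.506 CPM in the shallowest and 0.068 CPM in the deepest library (3 counts). A message absent from the cell and one lost in making its library cannot be told apart in these data.

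The size of the difference and the share of zeros depended on how abundant a gene was. Zeros are counted here after thinning as a 0 in either or both libraries of a pair, so this share is wider than the one above. Among 2796 genes with a mean of 10 to 30 CPM, sisters differed by a median of 2.07 on the log2 scale and blastomeres of different embryos by 2.61. There, 41.5% and 43.02% of gene and pair combinations had such a 0. At 100 to 300 CPM (964 genes) the medians were 0.62 and 0.79, and the shares 1.04% and 1.06%. From 300 CPM upwards no gene was at 0 in one sister. The 25 genes of 3000 CPM or more differed by a median of 0.22 between sisters and of 0.45 between blastomeres of different embryos. In each of the 6 level classes the sisters' median lay under that of different embryos.

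Gene by gene, 3819 of the 6323 genes (60.4%) varied more between embryos than between sisters by their mean squares. Over the 6323 genes the mean sister difference had a median of 2.08, a 5th percentile of 0.40 and a 95th percentile of 5.37, and 556 genes stayed under 0.5. In an edgeR quasi-likelihood test of embryo against the sister spread (11996 genes, 5 residual degrees of freedom), 4 genes passed at an adjusted p under 0.05, which is 0.0333% of the genes tested. At an unadjusted p under 0.05 there were 821, or 6.84%. The biological coefficient of variation between sisters was 1.62. The 4 genes were Dppa3, Znhit3, Gm9519 and Gm9, the last 2 named after their values were seen. The number depended strongly on the method, and limma voom gave 704 and DESeq2 729. All 4 passed with DESeq2 and 3 of the 4 with limma voom, and none passed in edgeR without embryo 3, 4 or 5.

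Dppa3 encodes Stella, a maternal protein that shields the maternal genome from loss of DNA methylation. Its level in blastomeres 1 and 2 was 27890 and 32960 CPM in embryo 1, 19500 and 21490 in embryo 2, 13750 and 15010 in embryo 3, 32680 and 31670 in embryo 4, and 23790 and 25470 in embryo 5. Sisters stayed within 0.24 of each other on the log2 scale while the embryos spread over more than 2-fold, with embryos 1 and 4 high and embryo 3 low (edgeR adjusted p = 0.0411). The mean absolute difference was 0.13 ± 0.07 between sisters (SD, n = 5) and 0.58 between blastomeres of different embryos. The call was lost without embryo 3, 4 or 5 (adjusted p of 0.449, 0.146 and 0.15) with the DESeq2 size factors (adjusted p = 0.0713) and with 4-cell blastomeres in the fit (0.0912).

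Dppa3 lies on chromosome 6 (GRCm38, chr6:122626410-122630272, plus strand), and a processed pseudogene copy, Dppa3-ps, on the X chromosome (chrX:37625647-37626097, minus strand). Among genes of at least 50 CPM, predicted genes left out, the pseudogene had the smallest sister difference for its level, at 0.05 ± 0.05 (SD, n = 5), which was 0.13 after thinning and 0.031 without embryo 3. Its sequence matches the longest open reading frame of the Dppa3 transcript at 98.2% of 451 bases, with 8 mismatches (GENCODE M21 transcripts, aligned without gaps). Bases 118 to 177 of that frame are shown because they hold 3 of the mismatches, in capitals, and so are among the few places where a read could tell both apart.
Dppa3: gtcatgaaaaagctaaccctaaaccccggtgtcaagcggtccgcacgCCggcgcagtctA
Dppa3-ps: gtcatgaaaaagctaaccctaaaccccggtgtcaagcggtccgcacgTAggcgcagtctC
In each of the 10 libraries Dppa3-ps had between 0.229% and 0.322% of the CPM of Dppa3. Its values are therefore uncertain, since the quantification could have assigned it reads of Dppa3.

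Znhit3, a zinc finger protein gene with a role in assembling small nucleolar particles, had 4327 and 5228 CPM in the sisters of embryo 4, against 1042 and 1075 in embryo 3. Embryo 1 had 1931 and 1731 CPM, embryo 2 had 1392 and 1914, and embryo 5 had 1570 and 1593. Embryo 4 stood apart from the others in both of its blastomeres (edgeR adjusted p = 0.0416, with sister differences of 0.19 ± 0.18 and differences of 0.93 between embryos). The call was lost without embryo 1, 3, 4 or 5 (adjusted p of 0.06 to 0.635) with the blastomere number as a replicate block (0.086) and with 4-cell blastomeres in the fit (0.0501).

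The 2 predicted genes were near absent from both sisters of embryo 1. Gm9519 on chromosome 7 had 0.063 and 0.092 CPM there, and 157 and 138 CPM in embryo 2, 113 and 125 in embryo 3, 62.1 and 55.8 in embryo 4 and 281 and 197 in embryo 5 (edgeR adjusted p = 0.0416). Gm9 on the X chromosome had 0.063 and 0.276 CPM in embryo 1 and 503 and 891 CPM in embryo 3, with 15.9 to 64.3 CPM in the other 3 embryos (edgeR adjusted p = 0.0416). Neither call held without embryo 1, 3, 4 or 5 or with the blastomere number as a replicate block. With 4-cell blastomeres in the fit, only 1 of these 2 genes passed, and likewise only 1 without embryo 2. In each gene the sisters of an embryo were both high or both low.

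That pattern was counted over all genes, a count chosen after the data were seen. After thinning, 257 of the 20926 genes with a count in any of the 10 libraries (1.23%) had, in every embryo, at least 10 counts in both sisters or 0 in both, with at least 1 embryo of each kind. The 945 regroupings gave 129 to 257 such genes, with a median of 176, and the true pairing gave the most (exact permutation test, two-sided, p = 0.00212, the smallest possible). Without embryo 3 there were 328, again the most of all regroupings. In 76 of the 257 the message was found in both sisters of 4 embryos and in neither of the other, in 123 it was found in 1 embryo alone, and in 24 and 34 genes it was found in 3 and in 2 embryos. The number of genes with a count after thinning also differed between embryos. It was 8491 and 8712 in the sisters of embryo 3, 10520 and 11063 in those of embryo 5, and 8791 to 10119 in the other libraries. The part of this in the count of 257 was not tested.

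Examples, chosen after their values were seen among those of high mean level, are 5 genes missing from embryo 1, 2 or 4. Most of the genes missing from 1 embryo alone were instead missing from embryo 3, whose sisters had the fewest genes with a count after thinning. Slc25a36 (0 and 0.087 CPM) and Ccdc126 (0 and 0 CPM) are such genes. Cenpi, a centromere protein gene on the X chromosome, had 0.031 and 0 CPM in embryo 1 and 63.2 to 171 CPM in the 8 other blastomeres. Abce1, which recycles ribosomes, was at 0 in both sisters of embryo 1 and between 8.49 and 162 CPM elsewhere. Akap7, an anchor for protein kinase A, was missing in embryo 4 (0.049 and 0 CPM) and had 37.7 to 156 CPM elsewhere. Snrpn, an imprinted gene for a splicing protein, was missing in embryo 2 (0 and 0.027 CPM) and had 4.65 to 143 CPM elsewhere. Rnf17, a germ cell Tudor domain gene, was missing in embryo 2 too, with 0.094 and 0.081 CPM against 29.4 to 156 CPM in the others.

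**Figure D2:**
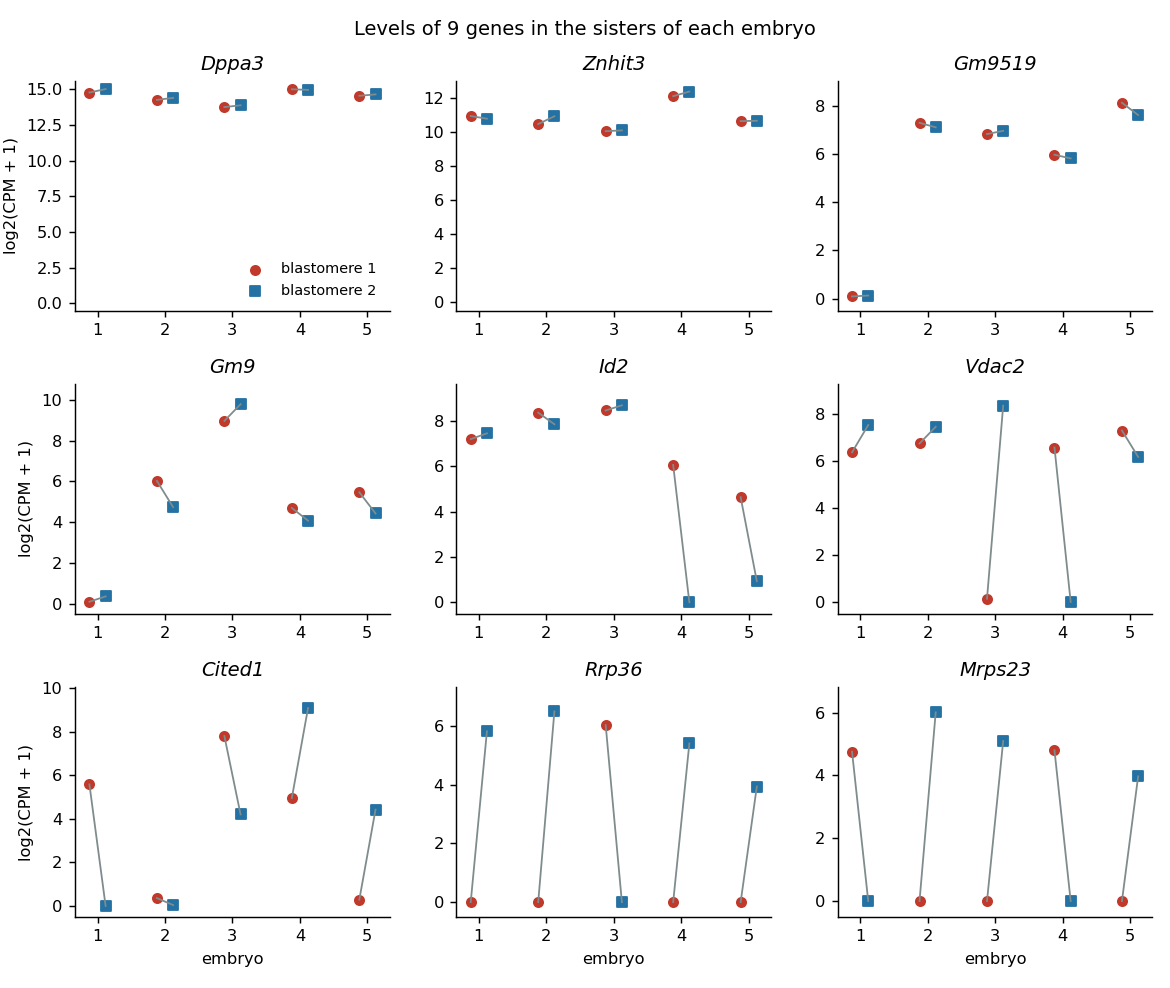
Levels of 9 genes as log2(CPM + 1) in blastomere 1 (red circles) and blastomere 2 (blue squares) of embryos 1 to 5, with sisters joined by a line. Dppa3, Znhit3, Gm9519 and Gm9 differ between embryos more than between sisters, Id2 differs between sisters in embryos 4 and 5, and Vdac2, Cited1, Rrp36 and Mrps23 differ widely within pairs.

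Y-linked messages cannot have been stored in the oocyte, which carries no Y chromosome. Eif2s3y, a translation initiation factor gene, had 116 and 37.2 CPM in embryo 1, 69.8 and 97.8 in embryo 2, 44.1 and 0 in embryo 3, and at most 0.11 in embryos 4 and 5. Uty, a histone demethylase family gene, had 37.7 and 147 CPM in embryo 1, 18.1 and 141 in embryo 2, 2.31 and 0.262 in embryo 3, and at most 0.593 in the others. Embryos 1 and 2 thus carried both messages in both sisters, and embryos 4 and 5 in neither beyond 1 CPM. In embryo 3, blastomere 1 also held Usp9y (13.4 CPM) and Zfy1 (34.1 CPM), while both were at 0 in blastomere 2. The 6 Y-linked genes with a count summed to 91.9 and 0.404 CPM in these sisters, per library total and without TMM scaling. Low expression, messages lost in making the library and a mislabelled blastomere cannot be told apart from these values. Each of these libraries had the other as its most correlated one, at an r of 0.465, against 0.434 and 0.445 for the next library of blastomeres 1 and 2. Zfy2, a zinc finger gene, was seen at 41.4 and 117 CPM in embryo 2 and at most 0.302 CPM in the rest.

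Among genes with a mean of at least 50 CPM, predicted genes left out, those that lay furthest above the trend of the sister difference on level are described next. Zfp873, a zinc finger gene, averaged a difference of 7.04 ± 3.48 on the log2 scale (SD, n = 5): blastomeres 1 and 2 had 0.094 and 36.0 CPM in embryo 1, 85.2 and 42.5 in embryo 2, 145 and 0.175 in embryo 3, 0.124 and 193 in embryo 4, and 0.22 and 88.0 in embryo 5. One sister was near 0 in 4 of the 5 pairs. Ift74, an intraflagellar transport gene, differed by 6.64 ± 4.60 and was at 0 in blastomere 1 of embryos 1 and 4 and in blastomere 2 of embryo 5, with 162, 66.8 and 124 CPM in the sisters. Zfp677, a zinc finger gene, differed by 6.74 ± 4.07. These SDs are wide because single pairs were alike: embryo 5 differed by only 0.43 at Zfp677 and embryo 3 by 0.90 at Ift74.

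Other members had one sister near 0 in some pairs and both sisters alike in others. Mdm2, the ubiquitin ligase that degrades p53, had 0.063 and 61.5 CPM in the sisters of embryo 1 and 0 and 144 CPM in those of embryo 3, but 94.9 and 126 CPM in embryo 4. Diablo, an antagonist of inhibitors of apoptosis, had 59.5 and 0 CPM in embryo 1 and 141 and 0.027 CPM in embryo 2. Hspa4, a chaperone of the HSP110 family, had 67.4 and 0 CPM in embryo 1 and 138 and 0.611 CPM in embryo 3, against 85.4 and 75.6 CPM in embryo 2. Vdac2, a channel of the outer mitochondrial membrane, was near or at 0 in one sister of embryos 3 and 4 (0.101 and 324 CPM, and 93.8 and 0 CPM), while the other 6 blastomeres held 70.9 to 183 CPM. Cited1, a transcriptional coactivator gene, had 30.1 and 542 CPM in embryo 4, 221 and 17.4 CPM in embryo 3, and under 0.3 CPM in both sisters of embryo 2. Ninj1, Gtf2h2 (a subunit of the general factor TFIIH), Selenoi (an enzyme of phospholipid synthesis) and Klb (a co-receptor of fibroblast growth factors) had mean differences of 5.10, 5.08, 4.69 and 4.47.

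Of the 12 genes furthest above this trend at 50 CPM or more, Hspa4 was higher in blastomere 1 in all 5 pairs, and each of the other 11 was higher in blastomere 1 in some pairs and in blastomere 2 in others. Members of this group were chosen for the size of the difference, so these values describe them and are not tested. The largest difference of a gene of 50 CPM or more within each pair was that of Cops2, a signalosome subunit gene, in embryo 1 (0 and 233 CPM), Klb in embryo 2 (0 and 160 CPM), Psmc6, a proteasome ATPase gene, in embryo 3 (0 and 249 CPM), Eef1akmt1, a methyltransferase gene, in embryo 4 (171 and 0 CPM) and Ift74 in embryo 5 (124 and 0 CPM). Except for Ift74 and Klb, these genes were found in both sisters of each of the other 4 embryos, at 9.96 CPM or more.

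After thinning, 3523 of the 6323 genes never had 0 in one sister beside 10 or more counts in the other. There were 1383 with 1 such pair, 916 with 2, 379 with 3, 111 with 4 and 11 with all 5. Rrp36, a ribosomal RNA processing gene, had 55.7, 89.8, 41.6 and 14.4 CPM in blastomere 2 of embryos 1, 2, 4 and 5 and 64.7 CPM in blastomere 1 of embryo 3, and 0 in each sister. Mrps23, a protein of the mitochondrial ribosome, had 25.97 and 26.9 CPM in blastomere 1 of embryos 1 and 4 and 63.2, 33.1 and 14.7 CPM in blastomere 2 of embryos 2, 3 and 5, with 0 in each sister. Hcfc2 (a host cell factor gene), Arl5b (a small GTPase), Mtx2 (part of a mitochondrial import complex), Cxcl13 (a chemokine), B4galt5 (a galactosyltransferase) and Flt3l (a cytokine) followed the same pattern, at mean levels of 12.01 to 16.7 CPM. All 8 lie in the 10 to 30 CPM range, where a 0 in either or both libraries was frequent for pairs of any kind.

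At the other end, some genes of modest level were close to equal in sisters. Dusp7, a phosphatase of MAP kinases, had 51.1 and 48.05 CPM in embryo 1, 41.6 and 59.5 in embryo 2, 32.9 and 51.9 in embryo 3, 67.4 and 61.3 in embryo 4, and 71.4 and 89.6 in embryo 5, a mean difference of 0.35 ± 0.24. Mcm7, a subunit of the replicative helicase, differed by 0.43 ± 0.22, Vdac1, the close relative of Vdac2, by 0.43 ± 0.41, Alms1, a centrosome gene, by 0.48 ± 0.35, and Odc1, the first enzyme of polyamine synthesis, by 0.45 ± 0.38. Zfp386, a zinc finger gene, differed by 0.53 ± 0.52 between sisters and by 1.45 between blastomeres of different embryos, with 8.32 and 16.6 CPM in embryo 1 and 79.4 and 93.05 CPM in embryo 4. Mpc1-ps, a pseudogene copy of the mitochondrial pyruvate carrier gene, was also in this group (0.36 ± 0.21), with the same uncertainty as Dppa3-ps.

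Gene lists were then described by their median over measured genes, beside medians of 2.08 between sisters and 2.64 between embryos over all 6323 genes. Because the difference falls with level, the position relative to a smooth trend on level is given too, for which all genes have a median of −0.05. Of 67 maternal oocyte transcripts measured, 71.6% differed less between sisters than between embryos, against 59.2% of all genes. Their medians were 1.15 and 1.33, and the list lay 0.09 above the trend. The median level of this list was 108.5 CPM, against 34.8 CPM for all genes. The oocyte genes Omt2a and Omt2b differed by 0.20 ± 0.07 and 0.14 ± 0.17 between sisters and by 0.41 and 0.46 between embryos. Omt2b had 21760 and 20730 CPM in embryo 1, 26050 and 26030 in embryo 2, 15710 and 15290 in embryo 3, 16080 and 11900 in embryo 4, and 17970 and 20170 in embryo 5. Not all stored messages were even: Ccnb2, a B-type cyclin, averaged a sister difference of 5.49, and the oocyte growth factor genes Bmp15 and Gdf9 had 2.68 each. Tcl1b2, a relative of the AKT coactivator Tcl1, differed by 0.55 between sisters and by 1.58 between embryos. Ccnb2, Bmp15, Gdf9 and Tcl1b2 were named after their values were seen.

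Of 8 measured genes of the subcortical maternal complex and its relatives, Nlrp9c had 1823 and 1361 CPM in embryo 1 and 897 and 1201 CPM in embryo 2, a mean sister difference of 0.32 ± 0.10. Its relative Nlrp9a had 0.101 and 147 CPM in embryo 3. The list's medians were 1.17 between sisters and 1.14 between embryos.

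The 42 measured zygotic genes of the 2-cell stage had medians of 1.09 between sisters and 1.80 between embryos. Of them 71.4% differed less between sisters, against 59.2% of all genes, at a median level of 76.2 CPM against 34.8 CPM. Gm5662 had 2166 and 1407 CPM in embryo 3, 578 and 764 in embryo 5, 363 and 259 in embryo 1, 206 and 327 in embryo 2, and 191 and 230 in embryo 4, so that embryo 3 was high in both sisters. Its mean difference was 0.49 ± 0.17 between sisters and 1.52 between embryos. Rfpl4b and the homeobox gene Obox6 differed by 0.48 ± 0.44 and 0.29 ± 0.29 between sisters. The Zscan4 genes, a cluster of near-identical copies whose expression marks the 2-cell stage, summed to 135 and 109 CPM in embryo 1, 162 and 338 in embryo 2, 196 and 35.2 in embryo 3, 47.95 and 264 in embryo 4, and 524 and 380 in embryo 5. Sisters of embryos 3 and 4 were unlike in opposite directions of blastomere number. As copies share reads, the sum is given in place of single genes.

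Regulators that have been studied for early bias between blastomeres were mostly low. Of 45 listed, 20 were measured, with medians of 2.54 between sisters and 2.81 between embryos, and 45% of them differed less between sisters, against 59.2% of all genes. Bmi1, a Polycomb component, and Hmmr, a spindle protein gene, were present in all blastomeres and differed by 0.41 ± 0.32 and 0.63 ± 0.32. Id2, an inhibitor of helix-loop-helix factors, had 146 and 174.5 CPM in embryo 1, 329 and 231 in embryo 2, 352 and 412 in embryo 3, 65.7 and 0 in embryo 4, and 23.95 and 0.907 in embryo 5. It was unlike in the sisters of embryos 4 and 5 alone. Prdm14, a pluripotency regulator gene studied at the 4-cell stage, had 47.4 and 1.11 CPM in embryo 2, 65.6 and 0.151 in embryo 5, 20.6 and 0 in embryo 4, 3.49 and 0 in embryo 1, and 0 in both sisters of embryo 3. It was higher in blastomere 1 of all 4 pairs that had a count, at low levels and with numbers that name no identity. Fgf4, a growth factor gene, was found in both sisters of 4 embryos (4.14 to 121 CPM) and in neither of embryo 3. Prdm14 and Fgf4 were named after their values were seen.

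**Figure D3:**
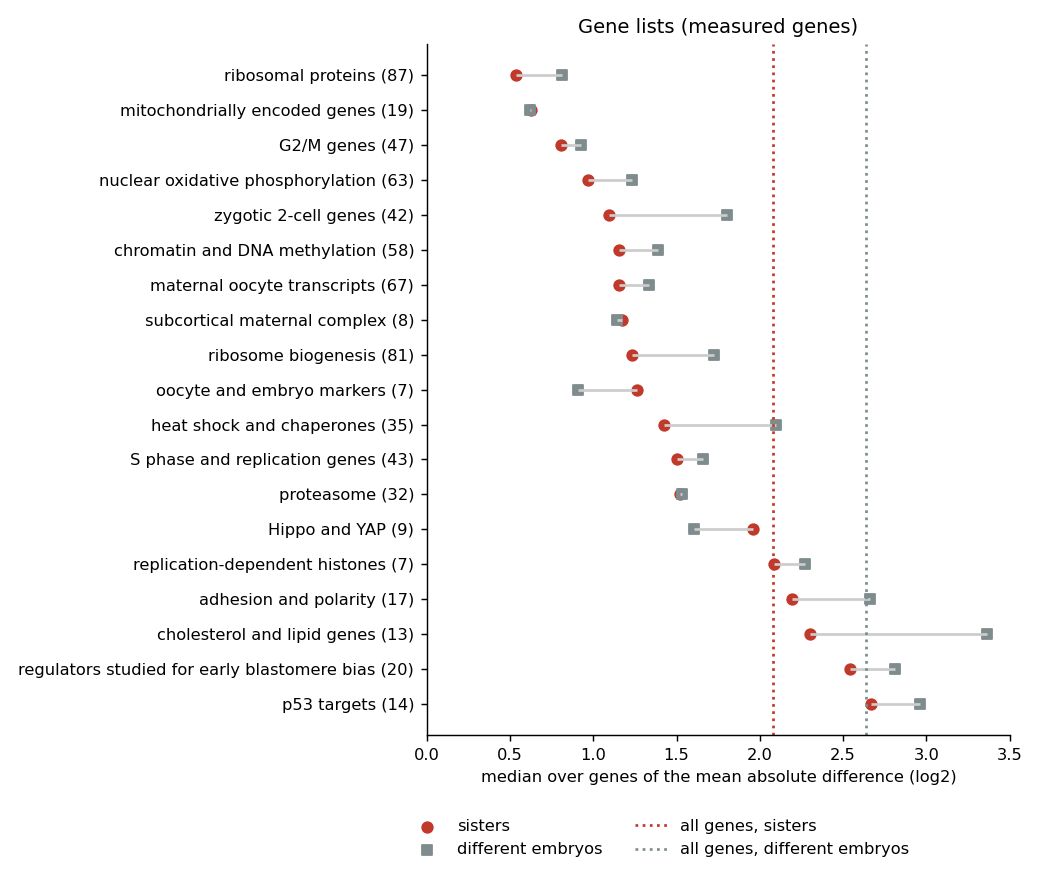
Median over the measured genes of each list (numbers in brackets) of the mean absolute log2 difference between sisters (red circles) and between blastomeres of different embryos (grey squares); dotted lines are the medians of all 6323 genes. Ribosomal proteins have the lowest sister median, 0.54, and 4 lists (Hippo and YAP, oocyte and embryo markers, the subcortical maternal complex and mitochondrially encoded genes) of the lists plotted, those with 7 or more measured genes, have a sister median above that of different embryos.

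Ribosomal protein genes had the lowest sister median of these lists, at a median level of 247 CPM, against 34.8 CPM for all genes. The 87 measured genes had medians of 0.54 between sisters and 0.81 between embryos. Of them 87.4% differed less between sisters, against 59.2% of all genes, and 79.3% lay below the trend on level, against 52.7% of all genes. Rpl39 had 396 and 270 CPM in embryo 1, 261 and 261 in embryo 2, 420 and 419 in embryo 3, 1099 and 1139 in embryo 4, and 537 and 521 in embryo 5, with a mean difference of 0.13 between sisters and 0.98 between embryos. Embryo 4 was about 2 times as high as the next in both sisters. Rps26, Rpl21 and Rpl37 differed by 0.14, 0.15 and 0.15 between sisters. At the other end Rpl22l1, a paralog of Rpl22, and Rpl14 differed by 5.51 and 4.10. These 6 were chosen after their values were seen, as the most and least even of the list, and the many pseudogene copies of ribosomal protein genes make the counts of single members uncertain. In embryo 4, 69 of the 87 (79.3%) were higher in blastomere 1 and 18 in blastomere 2, against 55.9% of all 6323 genes higher in blastomere 1. The median signed difference was 0.37 for the list and 0.21 for all 6323 genes. In embryo 2, 59 of the 87 (67.8%) were higher in blastomere 2, against 54.5% of all genes. Embryos 1 and 3 had 46 and 49 higher in blastomere 2, and embryo 5 had 50 higher in blastomere 1.

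Nuclear genes of oxidative phosphorylation had medians of 0.97 and 1.23 (63 genes), G2/M genes 0.81 and 0.93 (47 genes), S phase and replication genes 1.502 and 1.66 (43 genes), ribosome biogenesis genes 1.23 and 1.73 (81 genes) and chromatin and DNA methylation genes 1.15 and 1.39 (58 genes), each first between sisters. Cks2, a subunit that binds cyclin-dependent kinases, differed by 0.18 ± 0.21 and Gmnn, the inhibitor of replication licensing, by 0.15 ± 0.15, while Gmnn differed by 0.53 between embryos. Proteasome genes had medians of 1.52 and 1.53 (32 genes), heat shock and chaperone genes 1.43 and 2.10 (35 genes), p53 targets 2.67 and 2.96 (14 genes), adhesion and polarity genes 2.19 and 2.66 (17 genes), Hippo and YAP genes 1.96 and 1.60 (9 genes), cholesterol and lipid genes 2.30 and 3.36 (13 genes) and replication-dependent histones, of which oligo-dT primes few, 2.09 and 2.27 (7 genes). The 5 immediate early genes measured had 2.498 and 2.44. The X-linked ubiquitin ligase gene Rlim, the only measured member of the X inactivation list, differed by 0.56 ± 0.49 between sisters and by 1.02 between embryos.

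Mitochondrially encoded genes were all shifted one way in 2 of the 5 pairs. In embryos 1 and 2 all 19 measured genes were higher in blastomere 1, with median signed differences of 0.87 and 1.19. In embryo 3, 15 of the 19 were higher in blastomere 2 (median −0.21), in embryo 4, 13 were higher in blastomere 2 (−0.05), and in embryo 5, 15 were higher in blastomere 1 (0.21). The genes of embryo 4 were not alike, with signed differences of −2.46 for the transfer RNA gene mt-Tl2 and −1.63 for mt-Tm, and of 0.25 for mt-Nd6 and 0.14 for the ribosomal RNA gene mt-Rnr1. The cytochrome b gene mt-Cytb had 90710 and 41150 CPM in embryo 1, 101000 and 62260 in embryo 2, 118500 and 120300 in embryo 3, 69240 and 67020 in embryo 4, and 69460 and 51710 in embryo 5. The share of all counts from the mitochondrial genome was 24.5% and 15.2% in embryo 1, 30.1% and 19.7% in embryo 2, 32.8% and 33.5% in embryo 3, 20.9% and 22.5% in embryo 4, and 24.7% and 20.5% in embryo 5. The richer sister was the deeper library in embryo 1 and the shallower one in embryo 2. These genes are cut from shared primary transcripts and are not independent of each other, and fewer mitochondria, less RNA in each, and unequal yield from these messages cannot be told apart.

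**Figure D4:**
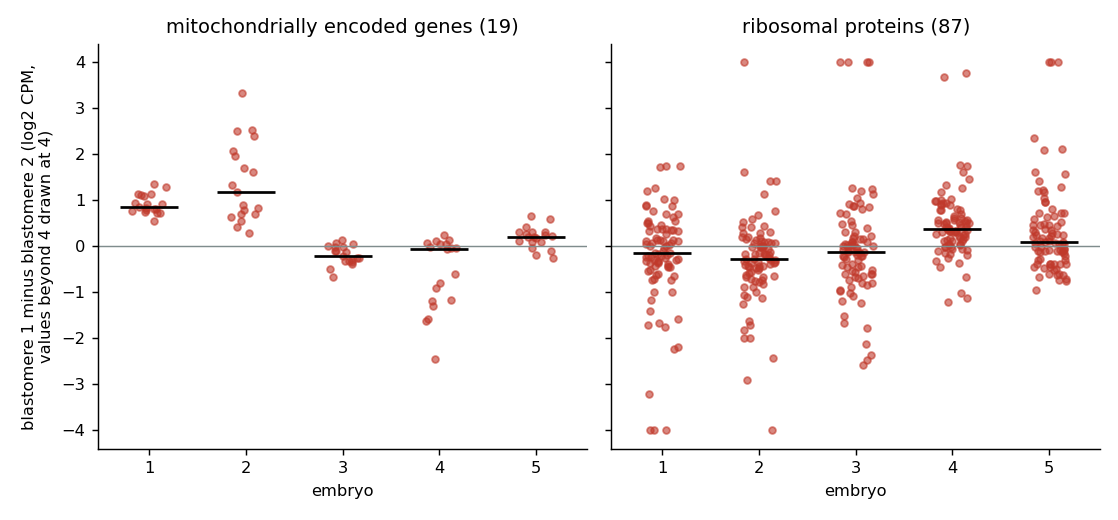
Blastomere 1 minus blastomere 2 in log2 CPM for each of the 19 measured mitochondrially encoded genes (left panel) and 87 ribosomal protein genes (right panel) in embryos 1 to 5, with lines at the medians and values beyond 4 drawn at 4. All 19 mitochondrial genes lie above 0 in embryos 1 and 2.

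No nuclear chromosome showed a shift of that size. For 1381 genes of at least 100 CPM, the median signed sister difference of a chromosome was compared with that of all genes in the pair, for 20 nuclear chromosomes with at least 20 such genes. The 100 values lay between −0.23 and 0.31, and 1 of them passed 0.3 in size, chromosome 16 in embryo 3 (44 genes, 25 higher in blastomere 1 and 19 in blastomere 2). The mitochondrial genome, with 12 such genes, was shifted by 0.87 in embryo 1 and 0.89 in embryo 2.

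Thinned to 1 depth, sisters differed by a median of 1.10 (5 pairs, 0.935 to 1.28), blastomeres of different embryos by 1.32 (40 pairs, 1.09 to 1.56) and intact 2-cell embryos by 1.02 (10 pairs, 0.885 to 1.32). The summed counts of thinned sisters differed between embryos by 0.99 (10 pairs, 0.857 to 1.17). These sums were not thinned again and are deeper than the other libraries. The values of sisters and of intact embryos overlapped. Intact embryos and summed sisters hold the RNA of 2 cells and a blastomere that of 1. The part of this in the values, and that of the greater depth of the sums, was not tested.

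At the 2-cell stage sisters differed by a median of 1.002 ± 0.087 (SD, n = 5 embryos). Blastomeres of the same 4-cell embryo differed by 1.084 ± 0.067 (n = 3, batch 1), with all libraries thinned to 2.40 M counts (exact permutation test, two-sided, p = 0.25). The labels do not say which 4-cell blastomeres came from the same division. Pairs at the 4-cell stage were therefore taken within an embryo whether sisters or not, and the stages compare unlike pairs. The values by embryo were 1.01, 1.04, 1.09, 1.01 and 0.86 at the 2-cell stage and 1.08, 1.15 and 1.02 at the 4-cell stage, and the stages overlapped. The direction depended on which genes were counted: with all genes of at least 1 CPM the 2-cell sisters were further apart, at 0.714 at the 2-cell stage and 0.62 at the 4-cell stage (exact permutation p = 0.0357, the smallest this design can give). Batch 2 holds 4-cell embryos only, and with it added the values were 0.97 ± 0.07 at the 2-cell stage and 0.87 ± 0.32 at the 4-cell stage (n = 5 each, exact permutation p = 0.452). Across genes, the difference above the trend at the 2-cell stage (sisters) correlated weakly with that at the 4-cell stage (blastomeres of the same embryo). Spearman rho was 0.21 over 4591 genes for batch 1 and 0.079 over 4725 genes for batch 2. Genes are not independent here and share their base composition and length.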

How the data were processed

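Expression was measured in single blastomeres and intact embryos by a Smart-seq2 type protocol (oligo-dT priming, template switching, PCR, tagmentation), per the labels' protocols. Per the submitters' processing notes, Trim Galore 0.6.10, STAR 2.7.3a and RSEM 1.2.28 were used with GRCm38 (mm10); annotation and strandedness are not given in the sources used here. The authors deposited expected counts per gene (55487 genes, of which 53170 matched 1 entry of GENCODE M21 by symbol); of values above 0, 12.6% carry a fraction, so all were rounded. No column was left unused.

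CPM are TMM-scaled (edgeR 4.0.16), and sums of markers and of Y-linked genes are per library total. Log2 values have a prior count of 2. A sister difference is the absolute difference of log2 CPM, and its trend on level is a lowess fit (span 0.3). Embryos were compared with the edgeR quasi-likelihood F-test (filterByExpr, Benjamini-Hochberg adjustment at 0.05). Quantities of pairs were tested exactly over all pairings of the 10 libraries, and stages by exact permutation of embryos. The edgeR test and the test over pairings were tried on simulated data, and the permutation of stages was not. The edgeR simulation had a smaller spread within embryos than these sisters. Genes named are the first by p, by sister difference, by zeros and by level in each of 26 lists, with mean CPM of at least 50 for the first 2; others are said to be chosen after their values were seen. Members and lists were chosen with earlier results of these data known. Alternatives were the DESeq2 size factors, DESeq2 1.42.0, limma 3.58.1 voom, other count and CPM limits, prior count 0.5, thinning, the blastomere number as a block, 4-cell libraries in the fit, batch 2, and each embryo left out. Fits ran in R 4.3.3, and the rest in Python 3.11.15 (scipy 1.17.1, statsmodels 0.14.6, numpy 2.4.6, pandas 2.3.3; plots in matplotlib 3.10.9).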

Additional observations from a re-analysis of the deposited data

Results flagged for a closer look

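With Dixon's test at 95% on the 5 sister pairs, embryo 3 stood apart from the other embryos in 2 of 25 groups of values examined, where about 1 in 20 would be flagged in any case. The median absolute sister difference of proteasome genes was 1.521 in embryo 3, against 0.720 to 0.895 in the other 4 embryos, and that of chromatin and DNA methylation genes was 1.454, against 0.668 to 0.887. Embryo 3 also had the lowest sister correlation of all genes.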

How the results depend on the processing

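The higher correlation, smaller difference and lower share of zeros in sisters kept direction and call under each alternative run for them. The number of genes that differed between embryos, 4, was 264 with no filter, 7 with a minimum count of 50 and 10 after thinning. It was 47 with 4-cell blastomeres in the fit, 704 with limma voom, 729 with DESeq2, and 0 to 4 without 1 embryo (0 without embryo 3, 4 or 5). The first 4 genes were all called with no filter, with a minimum count of 50, after thinning and with DESeq2. Of them, 3 passed with limma voom and 3 without embryo 2. Only 1 passed with 4-cell blastomeres in the fit, and only 1 without embryo 1. With the blastomere number as a replicate block, 1 gene passed; the number names no shared source, so the samples share only a number. The 2-cell minus 4-cell value, −0.081, was 0.094 with genes of at least 1 CPM and 0.0998 with batch 2 added, so it turned round, and −0.17 without thinning (exact permutation p = 0.0357). Genes on or off in both sisters of every pair, 257, numbered 328 to 396 without 1 embryo, as fewer embryos must match. They numbered 352 with a minimum of 5 counts and 249 without thinning, each the most of all regroupings. List medians relative to the trend that moved beyond the replicate spread were those of the subcortical maternal complex (0.17 at 1 CPM, −0.38 to −0.0058 without 1 embryo), immediate early genes (0.64 at 1 CPM, −0.93 to 0.36), p53 targets (0.0017 to 0.43 without 1 embryo), cholesterol genes (0.033 at 1 CPM, −0.21 thinned, −0.49 with prior count 0.5, −0.69 to 0.075 without 1 embryo) and oocyte markers (0.53 at 1 CPM); the cause was not tested. Depth limits what a 0 means in the shallow libraries.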
